A study of Mus musculus with 40 samples.

Results

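The microRNAs described here are 5 of the mature products of the miR-7 and miR-671 genes, which are tied to the Cdr1as circuit. They are mmu-miR-7a-5p, mmu-miR-7a-1-3p, mmu-miR-7b-5p, mmu-miR-671-5p and mmu-miR-671-3p. They were chosen by name, as 5 of the 1978 mature miRNAs in a small RNA sequencing count table, and all 5 passed the filter on low counts in every comparison. The libraries came from the CA1 region of the hippocampus of C57Bl/6J mice, one library per mouse. TG mice carry the CaMKIIδC transgene and are a model of heart failure, and their wild-type (WT) littermates served as controls, both males and females. There were 5 WT and 9 TG mice at 3 months of age, and 15 WT and 11 TG mice at 6 months. The study asked whether hippocampal miRNAs differ between these genotypes and ages. The sources used here do not name the promoter that drives the transgene. The labels do not give the sex of single mice.

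miRNAs are short RNAs that guide Argonaute proteins to partly complementary transcripts, and the seed, bases 2 to 8 from the 5′ end, sets most of this pairing. Each hairpin precursor yields a 5p and a 3p strand, and one of them is usually kept more often than the other. Cdr1as is a circular RNA of neurons that carries many miR-7 sites and a nearly complementary site for miR-671, which directs its slicing. The long non-coding RNA Cyrano carries an extensively paired miR-7 site and is known for directing the degradation of miR-7. Neither transcript was measured in these small RNA libraries.

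The mature sequences show what the members share. All 7 arms looked up were found in the RefSeq table for GRCm38.p6, and each is printed 5′ to 3′ with its seed in capitals.
mmu-miR-7a-5p: uGGAAGACuagugauuuuguugu
mmu-miR-7b-5p: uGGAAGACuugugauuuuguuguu
mmu-miR-671-5p: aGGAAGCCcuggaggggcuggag
mmu-miR-671-3p: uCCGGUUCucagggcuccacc
mmu-miR-7a-1-3p: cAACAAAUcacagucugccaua
mmu-miR-7a-2-3p: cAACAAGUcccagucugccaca
mmu-miR-7b-3p: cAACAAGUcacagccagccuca

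miR-7a-5p and miR-7b-5p were the only 2 of 1679 mature miRNAs in that table with their seed. They differ by A10U, counted from 1 at the 5′ end of miR-7a-5p, and by 1 extra U at the 3′ end of miR-7b-5p, so reads with an error or a trimmed end could be counted for the other one. The seed of miR-671-5p differs from that of miR-7a-5p by A7C, counted on the whole miRNA. No other listed miRNA had the seed of miR-671-5p or of miR-671-3p.

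The miR-7 genes lie on 3 chromosomes. miR-7a-5p is made from Mir7-1 (chr13:58392841-58392863, minus strand), inside an intron of Hnrnpk on the same strand, and from Mir7-2 (chr7:78888295-78888317, plus strand), which overlaps no other annotated gene. miR-7b-5p comes from Mir7b (chr17:56243017-56243040, plus strand), also outside other annotated genes. Mir671 lies on the plus strand of chromosome 5, with miR-671-5p at chr5:24592132-24592154 and miR-671-3p at chr5:24592171-24592191, within a coding exon of Chpf2 on the same strand and an exon of Smarcd3 on the opposite strand. The reads of miR-7a-5p could not be assigned to one gene. The table listed 10847124 of them under the first hairpin and 10830343 under the second, and the first was used.

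The target transcripts were searched in GENCODE vM21 for the letters GTCTTCC, which pair with the miR-7 seed. A C230004F18Rik transcript of 3354 bases, whose gene RefSeq lists with the synonym Cdr1as, held 123 such matches on its own strand and 0 on the other. Of 141767 transcripts, 13.8% held at least 1, and no transcript outside C230004F18Rik held more than 11. The Cdr1 transcript, which lies on the opposite strand, held 0 on its own strand and 79 on the other. The letters GGCTTCC, which pair with the miR-671-5p seed, occurred 1 time in the C230004F18Rik transcript and in 16.8% of all transcripts. The single best site for miR-671-5p, the best-paired of the 123 miR-7 matches, and the miR-7 site of Cyrano (1700020I14Rik, a transcript of 8300 bases) are shown 5′ to 3′, with bases that can pair with the miRNA in capitals.
Cdr1as gene, miR-671-5p site: tTCCAGCatCTCCAGGGCTTCCa
Cdr1as gene, miR-7a-5p match: tCcAgAAAAatcCaAGTCTTCCA
Cyrano, miR-7a-5p site: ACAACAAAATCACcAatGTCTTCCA
The first site paired at 19 of the 23 positions of miR-671-5p. The Cyrano site paired at 22 of the 23 positions of miR-7a-5p, with 2 extra bases between the seed match and the rest, against 16 of 23 in the best-paired match of the Cdr1as gene. These are matches of letters, and binding was not measured.

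Libraries held 1926108 to 22892729 counts on miRNAs, so that 3 counts, the upper limit that a count of 0 allows, stood for 0.131 to 1.56 CPM. Depth differed with age. Its medians were 14340558 counts in WT and 18431486 in TG mice at 3 months, and 9893109 and 9239179 at 6 months. The part of depth in the age differences below was not tested. CPM values are counts brought to a common library total, and those given here are also scaled by TMM, edgeR's correction for composition. The first principal component of 364 abundant miRNAs, computed without the miR-7 and miR-671 arms, held 71.9% of the variance and the second 9.78%. The second separated the ages except for 3 libraries. WT mice 1 and 5 and TG mouse 8 at 3 months had scores of 1.75 to 3.18, within the range of the 6-month libraries (-0.19 to 4.94) and outside that of the other 11 libraries at 3 months (-9.79 to -3.11). Results on age are therefore also given without these 3 libraries. Since they were set aside for lying with the older mice, leaving them out widens an age difference by construction. For WT mice 1 and 2 at 3 months the genotype field says TG while the title says wild type, and the title was followed. Neuronal miRNAs (miR-124-3p, miR-9-5p, miR-128-3p) were present throughout, with a summed level of 164698 to 362841 CPM.

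miR-7a-5p was one of the most abundant miRNAs of CA1. It averaged 21346 CPM over the 40 libraries, took 2.31% of all miRNA counts and ranked 11th among 1978 miRNAs, between 8th and 17th in single libraries. miR-7b-5p averaged 4937 CPM and ranked 33rd. Counts of miR-7a-5p exceeded those of miR-7b-5p by a median factor of 4.04, with a range of 3.12 to 7.26. The partner strands were rare, with 34.5 CPM for miR-7a-1-3p, 24.8 CPM for miR-7a-2-3p and 2.08 CPM for miR-7b-3p. Mir671 had the opposite strand order, with 368 CPM for miR-671-3p and 10.9 CPM for miR-671-5p, the strand that pairs with the Cdr1as site. miR-671-5p was read 4 to 600 times per library, the fewest counts of the 5. Small RNA counts differ between miRNAs in how well each sequence is ligated and amplified, so this order is one of counts and not of molecules.

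**Figure D1:**
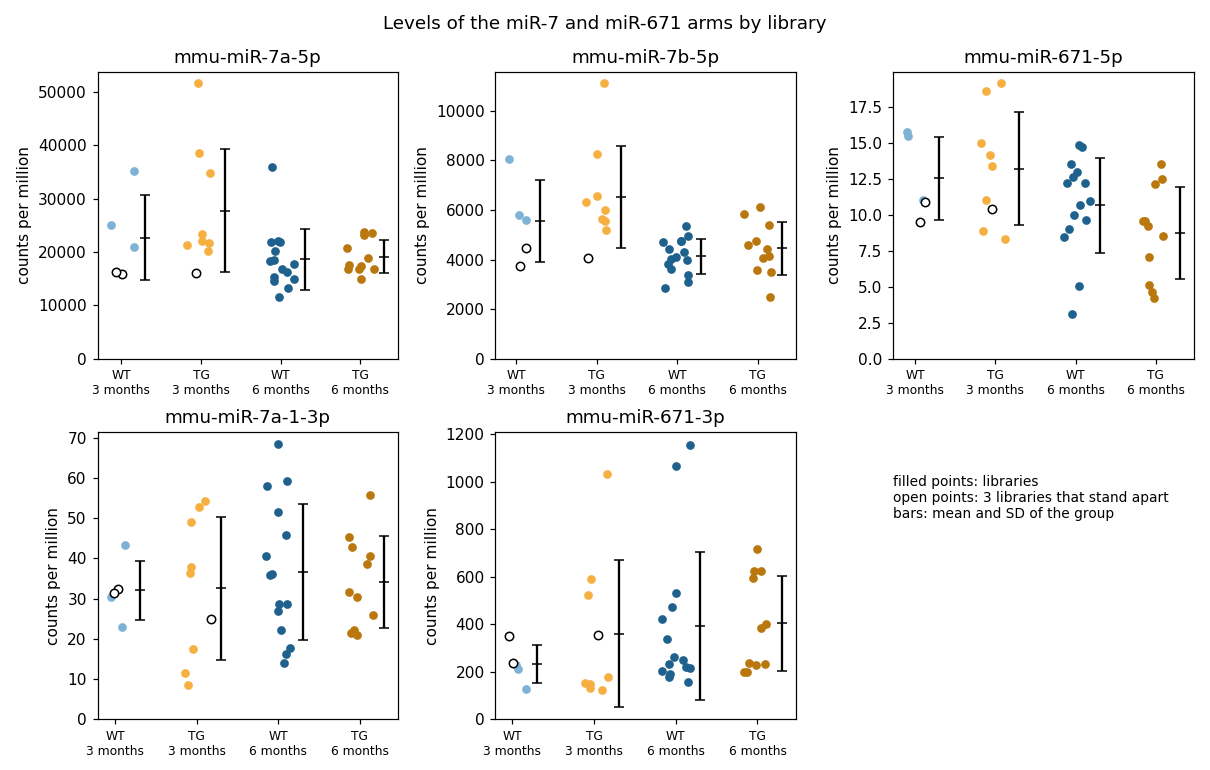
Level of each member in every library, in TMM-scaled CPM on the y axis, by genotype and age on the x axis. Filled points are libraries, open points are the 3 libraries that stand apart, and bars give the mean and SD of each group. The highest miR-7a-5p and miR-7b-5p values belong to 3-month TG mice, while the groups overlap for every member. Among WT mice the highest miR-7a-5p value, 36029 CPM, belongs to a 6-month mouse.

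miR-7b-5p was lower at 6 months than at 3 months. In WT mice at 3 months it stood at 3753, 5613, 5806, 8071 and 4466 CPM in mice 1 to 5. The 9 TG mice at 3 months ran from 4054 to 11133 CPM with a median of 6003. At 6 months the WT mice ran from 2872 to 5343 CPM (median 4102) and the TG mice from 2496 to 6137 CPM (median 4439). All 11 TG mice and all 15 WT mice at 6 months lay below the mean of their genotype at 3 months, although the groups overlapped. With both genotypes in 1 fit with genotype as a term, the log2 fold change with age was -0.50 (SE 0.12, n = 14 and 26, adjusted p = 0.0018 by edgeR's quasi-likelihood test). In TG mice alone it was -0.54 (SE 0.17, n = 9 and 11, adjusted p = 0.0387 by the edgeR test). In WT mice alone it was -0.44 (SE 0.16, n = 5 and 15) and did not pass (edgeR adjusted p = 0.278). The call in TG mice was lost without the filter on low counts (edgeR adjusted p = 0.0513) and with WT mice 1 and 2 at 3 months counted as TG, as their genotype field has it (edgeR adjusted p = 0.0609). It was also lost with the mouse number as a replicate block (edgeR adjusted p = 0.0716). The call over both genotypes passed in every alternative run, with adjusted p-values up to 0.00895.

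miR-7a-5p, which shares the miR-7 seed, had a similar course. The WT mice at 3 months stood at 15975, 20937, 24999, 35222 and 16282 CPM in mice 1 to 5, and the TG mice at 3 months ran from 15993 to 51778 CPM with a median of 22116. At 6 months the WT mice ran from 11607 to 36029 CPM (median 17761) and the TG mice from 15009 to 23787 CPM (median 17573). The 3 TG mice with the most miR-7a-5p at 3 months, at 34781, 38594 and 51778 CPM, lay above every TG mouse at 6 months. These 3 libraries (TG mice 1 to 3) were also the 3-month libraries with the lowest scores on the first principal component, at -11.5, -8.67 and -17.1 in the order of those levels, and the part of that component in their levels was not tested. Over both genotypes miR-7a-5p was lower at 6 months, with a log2 fold change of -0.43 (SE 0.14, edgeR adjusted p = 0.0201). Without WT mouse 4 at 3 months, which held the most miR-7a-5p of its group, the value was -0.36 and no longer passed (edgeR adjusted p = 0.0671). With the mouse number as a replicate block it was -0.31 and did not pass either (edgeR adjusted p = 0.125). In TG mice the value was -0.52 (SE 0.18) and missed the threshold (edgeR adjusted p = 0.0584), and in WT mice it was -0.30 (SE 0.20, edgeR adjusted p = 0.497).

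miR-671-5p was the third member that was lower at 6 months over both genotypes. The WT mice at 3 months stood at 9.49, 15.4, 11.0, 15.7 and 10.9 CPM in mice 1 to 5, and the TG mice at 3 months ran from 8.32 to 19.1 CPM with a median of 13.4. At 6 months the WT mice ran from 3.10 to 14.9 CPM (median 10.9) and the TG mice from 4.20 to 13.5 CPM (median 9.23). The log2 fold change over both genotypes was -0.42 (SE 0.16) and lay close to the threshold (edgeR adjusted p = 0.048). Leaving out WT mouse 2 or WT mouse 4 at 3 months ended this call, with edgeR adjusted p-values of 0.0904 and 0.0797, as did leaving out WT mice 1 and 2 together (edgeR adjusted p = 0.0619). It was also lost without the filter on low counts (edgeR adjusted p = 0.0974), with counts summed over precursors (edgeR adjusted p = 0.0668) and with WT mice 1 and 2 counted as TG (edgeR adjusted p = 0.0525). In TG mice the log2 fold change was -0.57 (SE 0.22, edgeR adjusted p = 0.079) and in WT mice -0.21 (SE 0.23, edgeR adjusted p = 0.686). Across the 40 libraries miR-671-5p also rose with the score on the first principal component (Pearson r = 0.84). That score had medians of 4.51 in WT and 10.3 in TG mice at 3 months, and of 3.98 and -5.76 at 6 months. The part of that component in the fall of miR-671-5p was not tested.

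The partner strands were not called with age in the main edgeR fits, which used TMM and no added factor or block, but some alternatives called them. miR-7a-1-3p had a log2 fold change over both genotypes of 0.13 (SE 0.22, edgeR adjusted p = 0.675), which was -0.11 when libraries were scaled by their totals. With a factor from the spike-ins in the fit it was 0.40 and was called (edgeR adjusted p = 0.00416), as it was in TG mice at 0.50 (edgeR adjusted p = 0.00279). miR-671-3p had a value of 0.42 (SE 0.31, edgeR adjusted p = 0.305). With 1 RUVr factor, estimated from the residuals, DESeq2 called it at 0.41 over both genotypes (adjusted p = 5.4e-10), 0.36 in TG mice (adjusted p = 1.67e-05) and 0.53 in WT mice (adjusted p = 5.85e-05). The arms outside the list stood at 0.18 (SE 0.13) for miR-7a-2-3p and 0.25 (SE 0.19) for miR-7b-3p, neither of them called. The 95% confidence intervals reached from -0.31 to 0.56 for miR-7a-1-3p and from -0.20 to 1.04 for miR-671-3p.

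Counted over the list, 3 of the 5 members were called with age over both genotypes, where 25.9% of all 699 miRNAs were called (84 higher and 97 lower at 6 months), and all 3 were lower. Scaled by library totals the same 3 were called, with 52 miRNAs higher and 139 lower at 6 months. The median log2 fold change of all miRNAs was then -0.26, so that miR-7b-5p and miR-7a-5p lay less far below it. In TG mice 1 of 5 was called, beside 15.7% of 629 miRNAs, and in WT mice 0 of 5, beside 0.152% of 660. A call required an adjusted p under 0.05 and an absolute log2 fold change above 0.26. The median log2 fold change of the members over both genotypes was -0.42, against -0.07 for all miRNAs. The age comparisons share no mice between genotypes, but the fit over both genotypes contains the mice of the other 2.

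**Figure D2:**
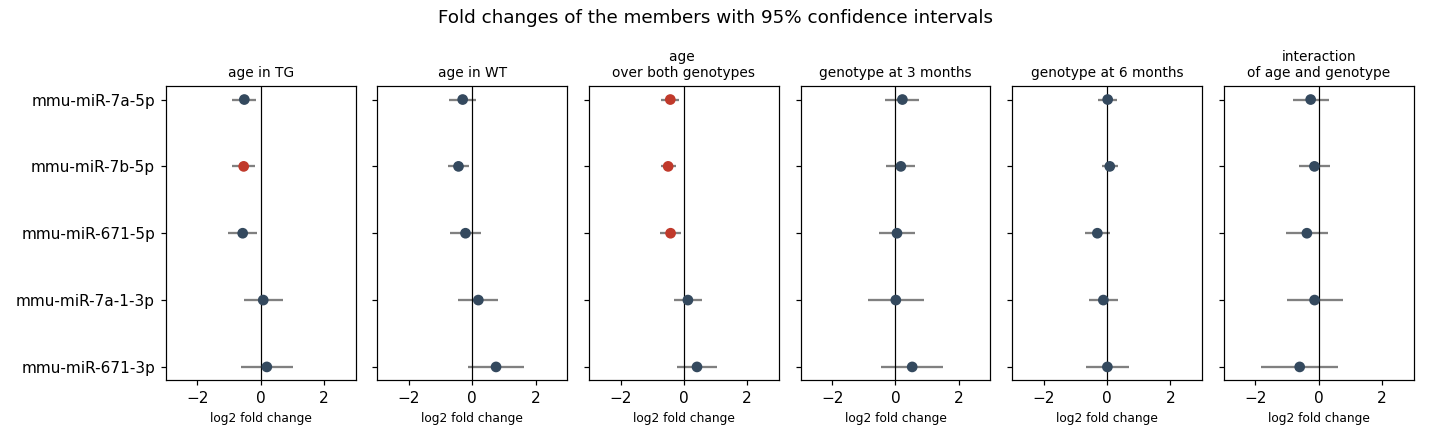
log2 fold change of each member (x axis) in 6 comparisons, with 95% confidence intervals from edgeR. Age is 6 months over 3 months and genotype is TG over WT. Red points passed the adjusted p and fold thresholds, and the intervals of the genotype and interaction panels all include 0.

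Without the 3 libraries that stand apart, the same 3 members were called over both genotypes. Their log2 fold changes were -0.62 for miR-7b-5p (edgeR adjusted p = 5.8e-05), -0.57 for miR-7a-5p (edgeR adjusted p = 0.000901) and -0.53 for miR-671-5p (edgeR adjusted p = 0.0222). miR-7a-5p in TG mice then passed the threshold, at -0.59 (edgeR adjusted p = 0.0188), and so did miR-7b-5p in WT mice, at -0.65 (edgeR adjusted p = 0.0288). The 3 libraries themselves held 15975 to 16282 CPM of miR-7a-5p, while the other 11 libraries at 3 months held 20212 to 51778 CPM. For miR-7b-5p the ranges were 3753 to 4466 CPM and 5202 to 11133 CPM, which do not overlap either. The miR-7 and miR-671 arms were not used to find these libraries, but other miRNAs that differ with age were. The 3 libraries were set aside for lying with the older mice, so leaving them out widens an age difference by construction. The calls and ranges without them are therefore not an independent test of the fall with age.

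The marker lists of other cell types were read beside these values. The summed level of the choroid plexus miRNAs miR-204-5p and miR-211-5p had medians of 623 CPM (366 to 839) in WT mice and 435 CPM (290 to 749) in TG mice at 3 months, and of 836 CPM (538 to 1740) and 806 CPM (638 to 1023) at 6 months. The oligodendrocyte list (miR-219a-5p, miR-219a-2-3p, miR-338-3p) had medians of 1388 CPM (1047 to 1647) and 1690 CPM (1193 to 2307) at 3 months, and of 1128 CPM (675 to 1665) and 1085 CPM (743 to 1355) at 6 months. The vessel list (miR-126a-3p, miR-143-3p, miR-145a-5p) had medians of 12437 CPM (9224 to 16190) and 11568 CPM (9350 to 16833) at 3 months, and of 13888 CPM (11070 to 22196) and 16744 CPM (13072 to 20947) at 6 months. The erythrocyte list (miR-451a, miR-144-3p, miR-486a-5p) had medians of 654 CPM (447 to 705) and 553 CPM (432 to 1371) at 3 months, and of 687 CPM (517 to 1242) and 801 CPM (640 to 1205) at 6 months. The neuronal list had medians of 210614 CPM in WT and 198367 CPM in TG mice at 3 months, and of 235670 and 289280 CPM at 6 months. Every miRNA of these lists was found, and their part in the fall of the members was not tested. The microglia and leukocyte list ran from 17.8 to 70.3 CPM over all libraries and the heart muscle list (miR-208a-3p, miR-208b-3p, miR-499-5p) from 2.10 to 17.9 CPM. Of these 3 heart miRNAs, 1 had no counts in any WT mouse at 3 months, 1 in any WT mouse at 6 months and 2 in any TG mouse at 6 months. The pituitary miRNA miR-375-3p had medians of 51.0 CPM (33.0 to 93.9) in WT mice and 54.1 CPM (26.9 to 182) in TG mice at 3 months. At 6 months they were 54.2 CPM (29.5 to 143) and 44.7 CPM (21.0 to 94.4), so it varied widely between single libraries. In bulk tissue, fewer cells of a type and less of a miRNA per cell cannot be told apart.

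No member was called between TG and WT mice, which does not show that none differed. At 3 months 0 of 5 were called, beside 0% of 695 miRNAs, and the log2 fold changes ran from 0.01 for miR-7a-1-3p to 0.53 for miR-671-3p (SE 0.46). The value was 0.22 for miR-7a-5p, with a 95% confidence interval from -0.32 to 0.76, and 0.17 for miR-7b-5p, from -0.29 to 0.63. At 6 months 0 of 5 were called, beside 0% of 612. The value of miR-7a-5p was 0.02 (-0.27 to 0.31), that of miR-7b-5p 0.09 (-0.16 to 0.34), and that of miR-671-5p -0.31 (-0.70 to 0.09). Both ends of the miR-7b-5p interval at 6 months were smaller in size than its log2 fold change with age over both genotypes (-0.50). At 3 months the upper end, 0.63, was larger in size, so a genotype difference of that size was not excluded there. Over both ages 0 of 5 members were called, beside 0% of 699.

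The age effect itself was compared between genotypes by the interaction of age and genotype. No member was called, beside 0% of 699 miRNAs. The interaction was -0.25 (SE 0.28) for miR-7a-5p, -0.13 (SE 0.24) for miR-7b-5p and -0.37 (SE 0.33) for miR-671-5p, where a negative value stands for a larger fall in TG mice. The call of miR-7b-5p in TG mice and its absence in WT mice is therefore not a shown difference between genotypes. Across all miRNAs, the counts at an unadjusted p under 0.05 in the edgeR fits with no call were 7 for genotype at 3 months, 3 for genotype at 6 months, 14 for the interaction and 12 for genotype over both ages. DESeq2 without a factor also called 0 in each of these 4. With 1 RUVr factor it called 3, 3, 0 and 5 miRNAs in the same order, none of them members.

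Ratios within a library do not depend on the scaling between libraries. The log2 ratio of miR-7b-5p to miR-7a-5p was -2.05 ± 0.19 (SD, n = 9) in TG mice at 3 months and -2.13 ± 0.28 (SD, n = 11) at 6 months (exact permutation test, two-sided, p = 0.469, adjusted p = 0.784 over 12 tests). The log2 ratio of miR-7a-5p to miR-7a-1-3p was 9.90 ± 1.46 (SD, n = 9) at 3 months and 9.18 ± 0.51 (SD, n = 11) at 6 months in TG mice (exact permutation p = 0.153, adjusted p = 0.784). For miR-671-5p to miR-671-3p the values were -4.39 ± 1.52 (SD, n = 9) and -5.44 ± 1.25 (SD, n = 11) (exact permutation p = 0.107, adjusted p = 0.784). In WT mice these 3 ratios differed with age by -0.12, -0.34 and -0.82 on the log2 scale. None of the 12 ratio tests, 4 comparisons of each ratio, passed after Benjamini-Hochberg adjustment. The fall of the 5p strands against their partners was thus not shown by the ratios, whose spread between mice was wide.

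Of the strands in these ratios, miR-671-3p, miR-671-5p and miR-7a-1-3p followed the first principal component. The ratios themselves were not set against it. The component held 71.9% of the variance of 364 other abundant miRNAs, so a close relation with it is not particular to the members. Its lowest scores, -24.3, -21.5 and -18.5, belonged to WT mice 5 and 4 and TG mouse 9 at 6 months. These libraries held the fewest miRNA counts, at 2080504, 3091291 and 1926108. The part of depth in this component was not tested. miR-671-3p ran from 121 to 1154 CPM over the 40 libraries and miR-671-5p from 3.10 to 19.1 CPM, and the 2 strands of this hairpin ran against each other (Pearson r = -0.83, Spearman rho = -0.87, permutation p = 1e-05, the smallest that 100000 resamples can give, adjusted p = 1.4e-05 over 7 relations). With the score on the first component, r was -0.98 for miR-671-3p, 0.84 for miR-671-5p and 0.84 for miR-7a-1-3p (rho -0.97, 0.82 and 0.88, each with a permutation p of 1e-05 and an adjusted p of 1.4e-05). Without the 2 libraries farthest from the median score, r was -0.98, 0.79 and 0.82. Within the 3-month mice r was -0.99, 0.83 and 0.96, and within the 6-month mice -0.98, 0.86 and 0.89. For miR-7a-5p the values were r = -0.28 (permutation p = 0.0852, adjusted p = 0.0994) and rho = -0.10 (permutation p = 0.521, adjusted p = 0.521) over all libraries. Without the 2 farthest libraries its r was -0.18, and within ages it was -0.59 at 3 months and -0.35 at 6 months. For miR-7b-5p r was 0.24 (permutation p = 0.137, adjusted p = 0.137) and rho 0.34 (permutation p = 0.0337, adjusted p = 0.0393), and r differed in sign between 3-month (-0.41) and 6-month mice (0.51).

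**Figure D3:**
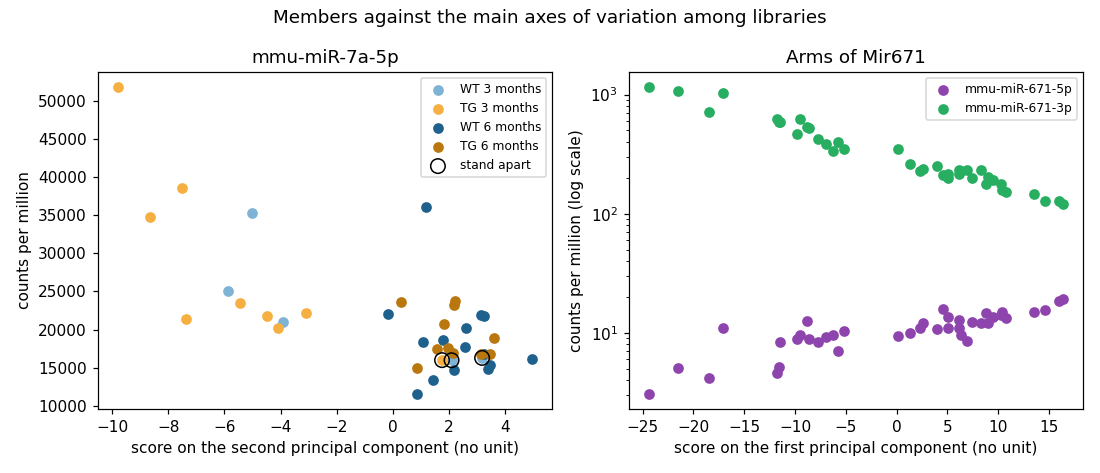
Left, miR-7a-5p in CPM (y axis) against the score on the second principal component (x axis, no unit), by group, with the 3 libraries that stand apart circled. Right, the strands of Mir671 in CPM on a log scale against the score on the first component, where miR-671-3p falls from 1154 to 121 CPM as miR-671-5p rises.

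miR-7a-5p and miR-7b-5p varied together across the libraries (r = 0.80, rho = 0.73, permutation p = 1e-05 for each, adjusted p = 1.4e-05). Without the 2 libraries farthest from the median r was 0.69, and it was 0.96 within the 14 mice at 3 months and 0.50 within the 26 at 6 months. How many reads of one sequence were counted for the other was not tested. After subtracting group means, the miRNAs most like miR-7a-5p among those with a mean of at least 10 CPM were miR-222-3p (r = 0.81), miR-323-3p (r = 0.78) and miR-7b-5p (r = 0.73). Those most like miR-7b-5p were miR-493-5p (r = 0.77), miR-298-5p (r = 0.76) and miR-382-5p (r = 0.74). For miR-671-3p they were miR-1964-3p, miR-151-3p and miR-673-3p (r = 0.98 each), for miR-671-5p miR-23a-3p, miR-369-3p and miR-93-5p (r = 0.85 each), and for miR-7a-1-3p miR-124-5p, miR-9-3p and miR-154-5p (r of 0.94 to 0.95). These likenesses are over 40 libraries that share the depth and component differences above.

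Other miRNAs known for degradation directed by a target were looked at beside miR-7. Of 6 listed (miR-29b-3p, miR-30b-5p, miR-30c-5p, miR-335-3p, miR-322-5p and miR-503-5p), 1 was called with age over both genotypes, where 25.9% of all miRNAs were called, and 5 were not. The called one was miR-29b-3p, with a log2 fold change of -0.80 (SE 0.26, edgeR adjusted p = 0.0213), and in TG mice it had -1.10 (SE 0.30, edgeR adjusted p = 0.0157). In WT mice it had -0.35 (SE 0.39) and was not called (edgeR adjusted p = 0.694). The median of the 6 over both genotypes was -0.40, against -0.07 for all miRNAs. No genotype comparison called any of them.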

How the data were processed

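Small RNA libraries (NEBNext kit, 300 ng of total RNA) from 40 mice were analysed. The authors trimmed adapters, mapped reads to mm10 and counted them per mature miRNA and precursor with miRDeep2, and the deposited values are raw counts. Submitters' processing notes name bcl2fastq 2.20.2, FastQC 0.11.5 and cutadapt 2.8. A second deposited table, of CPM, was not used. Reads that match several hairpins are listed under each, so each mature miRNA was represented by its precursor with the highest total. Groups followed the sample titles. Members and lists were chosen with earlier results of these data known.

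Tests used edgeR 4.0.16 (R 4.3.3) with TMM, filterByExpr (minimum count 10, minimum total 15) and robust quasi-likelihood F-tests over all miRNAs, with Benjamini-Hochberg adjustment. Named were the members, their partner arms, the degradation list and the 3 miRNAs most like each member. Ratios of counts plus 0.5 were compared by two-sided permutation tests of the mean (scipy 1.17.1), exact where a group held under 10 mice and with 100000 resamples otherwise. Relations with the principal components were computed after the data were seen. DESeq2 1.42.0, other scalings and sample choices served as alternatives. No 2 libraries of a group agreed within sampling noise.

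Depth ran from 1926108 to 22892729 miRNA counts per library, and limits from counts cover counting error only.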

Additional observations from a re-analysis of the deposited data

How the results depend on the processing

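Over both genotypes 1 to 4 members were called with age, from 1 without WT mouse 4 at 3 months to 4 with DESeq2 and 1 RUVr factor and with 1 spike-in factor, and leaving out each 3-month WT mouse gave 1 to 3. In TG mice the count of 1 became 3 with DESeq2 and with 4 groups in 1 fit, 4 with either factor, 2 with RLE scaling, with library totals and without the 3 libraries that stand apart (an alternative chosen after seeing the data), and 0 without the low-count filter and with WT mice 1 and 2 at 3 months counted as TG. In WT mice the count of 0 became 2 with the RUVr factor, 1 under the replicate block and 1 without the libraries that stand apart. The causes were not tested. All miRNAs called with age in TG mice were 99, against 70 to 302 over the alternatives, in WT mice 1 against 0 to 250, and over both genotypes 181 against 129 to 357. Genotype comparisons called 0 to 5 miRNAs and 0 members throughout.

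Signs changed only where the main fit had not called the member. These cases include miR-7a-1-3p with age, which edgeR with the spike-in factor called at 0.50 in TG mice and 0.40 over both genotypes. Under the replicate block miR-7a-1-3p had log2 fold changes of -0.72 (age in WT), -0.81 (genotype at 3 months), 0.040 (genotype at 6 months), 0.51 (interaction) and -0.14 (age over both), miR-671-5p -0.25 (genotype at 3 months) and miR-671-3p -0.033 (genotype at 6 months). With library totals miR-7a-1-3p had -0.25 (age in TG) and -0.11 (age over both), and miR-7a-5p -0.019 (genotype at 6 months). With the RUVr factor miR-7a-1-3p had -0.22 (genotype at 3 months) and 0.17 (interaction). With the spike-in factor miR-671-3p had -0.25, -0.085, 0.24 and -0.18 (genotype at 3 and 6 months, interaction, genotype over both ages) and miR-7a-1-3p 0.060 and 0.17 (genotype at 6 months and over both ages). At 6 months, for genotype, DESeq2 gave -0.0055 for miR-7a-5p and -0.017 for miR-671-3p, and RLE scaling -0.0055 and -0.016. With WT mice 1 and 2 at 3 months counted as TG, the interaction was 0.00016 for miR-7a-5p and 0.068 for miR-7b-5p, and the log2 ratio of miR-7a-5p to miR-7a-1-3p between genotypes at 3 months was -0.039. Without the libraries that stand apart, miR-7b-5p had an interaction of 0.034 and miR-671-5p a genotype value at 3 months of -0.087. Leaving out each WT mouse at 3 months, the genotype values at 3 months ran from -0.083 to 0.18 for miR-7a-1-3p and -0.038 to 0.17 for miR-671-5p, and the log2 ratios from -0.060 to 0.0052 for miR-7b-5p to miR-7a-5p and from -0.50 to 0.039 for the Mir671 strands.

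Mice with the same number were not taken as pairs in the main fits. The correlation of their deviations exceeded 0.1 in 7 of 9 pairs for age in TG and 2 of 5 for age in WT. For genotype it did so in 2 of 5 pairs at 3 months and 9 of 11 at 6 months. In the same order, a mouse correlated best with its own number in 2 of 9, 1 of 5, 0 of 5 and 4 of 11 cases. What mice with the same number share was not tested. With the number as a replicate block, 124 miRNAs were called with age in TG mice, 250 in WT mice and 356 over both. The members called under that block in edgeR were miR-671-5p alone in TG mice (adjusted p = 0.0302, with 0.0716 for miR-7b-5p), miR-671-3p in WT mice (1.60, adjusted p = 0.000103) and miR-7b-5p, miR-671-5p and miR-671-3p (0.90, adjusted p = 0.0112) over both genotypes, where miR-7a-5p had -0.31 (adjusted p = 0.125). Depth limits miR-671-5p most, with 4 counts in its lowest library.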
